A study of Mus musculus with 8 samples.

Results

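The 10 genes described here are Wnt10a, Lef1, Tcf7, Tcf7l2, Ctnnb1, Axin1, Axin2, Lrp5, Lrp6 and Fzd6, which encode components of canonical Wnt signaling. They were taken by symbol from a matrix of 24902 gene symbols counted in splenic B cells of 8 transgenic mice, and all 10 have a row in it. Of these, 2 were chosen by their measured levels, Wnt10a for its high value in the Eµ-TCL1 mouse and Tcf7 for its low values in the Eµ-PRMT5/TCL1 mice, so these differences are described below without a test. Of the 10 genes, 8 have a value in every mouse and were tested among 13173 genes. Axin2 and Lrp5 have no value in Eµ-PRMT5 mouse 1.

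Bulk RNA-seq was performed on pan-B cells isolated from the spleens of diseased mice at early removal criteria (ERC), the humane endpoint. The groups were 4 Eµ-PRMT5 mice carrying a human PRMT5 transgene (labelled Eµ-hPRMT5), 1 Eµ-TCL1 mouse carrying a human TCL1 transgene (Eµ-hTCL1), and 3 Eµ-PRMT5/TCL1 mice carrying both. The strain was C57BL/6N, and the labels name neither a treatment nor an age. PRMT5 is an enzyme that dimethylates arginine in histones and other proteins. TCL1 is an oncogene whose expression in B cells gives mice a disease like human chronic lymphocytic leukemia (CLL). The transgenes were driven by an immunoglobulin heavy-chain promoter and Eµ enhancer active in immature and mature B cells. Several founder lines were bred from the PRMT5 transgene. The title of 1 Eµ-PRMT5 mouse holds an identifier that the study's methods list as a founder. The labels do not otherwise state which line these mice came from. The titles of Eµ-PRMT5 mice 3 and 4 hold tags that the paper also uses in its histology. There, the mouse with the tag of mouse 3 had large lymphocytes with histiocytes. The mouse with the tag of mouse 4 had sheets of small lymphocytes. The part of such differences in the values below was not tested. Wild-type mice were not analysed here, so every group carries a transgene.

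In canonical Wnt signaling, a secreted Wnt protein binds a Frizzled receptor and the co-receptor LRP5 or LRP6 at the cell surface. Without Wnt, a complex built on Axin marks β-catenin for degradation. With Wnt, β-catenin accumulates, enters the nucleus and binds transcription factors of the TCF/LEF family, which otherwise repress their targets. In the lymphoid lineage, TCF-1 (encoded by Tcf7) and LEF-1 are best known from T cell development, LEF-1 also acts in early B cells, and high LEF1 is a marker of human CLL.

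Axin2 and Lef1 are textbook targets of β-catenin as well as members of the pathway, so the DNA before their start sites is shown here for the short TCF/LEF core motif CTTTGA, which reads TCAAAG on the other strand. RefSeq promoter windows on GRCm38.p6 were found for 5 of the 10 genes (Lef1, Tcf7, Tcf7l2, Ctnnb1 and Axin2), 11 windows of 300 bases in all. Only 1 of the 11, at a start site inside Lef1, held the motif, against 16% of 32851 windows of the same length. The 250 bases before the Axin2 start (plus strand, chr11:108920099-108920348) and before that Lef1 start (plus strand, chr3:131156044-131156293) read as follows, with motif matches in capitals.
Axin2: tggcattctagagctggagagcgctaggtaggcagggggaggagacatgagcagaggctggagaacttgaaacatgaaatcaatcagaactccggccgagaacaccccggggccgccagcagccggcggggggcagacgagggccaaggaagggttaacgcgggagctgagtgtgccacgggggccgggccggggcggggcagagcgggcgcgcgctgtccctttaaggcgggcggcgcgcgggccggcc
Lef1: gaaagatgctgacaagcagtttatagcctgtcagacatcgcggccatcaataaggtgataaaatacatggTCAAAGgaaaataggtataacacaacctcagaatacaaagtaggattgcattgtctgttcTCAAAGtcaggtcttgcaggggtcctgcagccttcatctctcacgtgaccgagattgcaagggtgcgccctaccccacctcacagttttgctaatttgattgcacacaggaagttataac
The Axin2 stretch held no match in these letters, and the Lef1 stretch held 2 matches, both in the TCAAAG orientation. A match is a description of the letters and not evidence of binding. The counts are summed over whole genes, so use of this Lef1 start could not be measured apart from the others.

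The libraries held between 3356297 and 10252426 counts on genes. The shallowest were those of the Eµ-TCL1 mouse (3356297) and Eµ-PRMT5 mouse 3 (3987989). Eµ-PRMT5 mouse 1 stood apart in having a value for 16379 symbols, against 20411 to 21475 in the others. All 7 B cell markers measured (among them Cd79a and Pax5) were detected in every mouse, with a summed level of 1780 CPM in Eµ-PRMT5 mouse 4 and 2872 to 7077 CPM in the others, where CPM are counts per 1000000 after TMM scaling. Neutrophil markers (9 of 9 with a value in every mouse, 8 of them above 0 in each) summed to between 493 and 8790 CPM, and 6 macrophage and monocyte markers to between 992 and 7326 CPM, both highest in Eµ-PRMT5/TCL1 mouse 1 and second in Eµ-PRMT5 mouse 4. Markers of other cell types were thus present, and in bulk samples fewer cells of a type cannot be told apart from less RNA per cell.

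Wnt10a encodes a secreted Wnt ligand and lies on chromosome 1 of GRCm38 (plus strand, chr1:74791516-74804179). It measured 14.6, 10.9, 48.8 and 8.53 CPM in Eµ-PRMT5 mice 1 to 4, then 8.36, 7.01 and 34.0 CPM in the 3 Eµ-PRMT5/TCL1 mice, with 571 CPM in the single Eµ-TCL1 mouse. The Eµ-TCL1 mouse was thus far above all 7 others, with 2113 reads on the gene against 49 to 221 elsewhere. The fitted level was 27.8-fold lower in Eµ-PRMT5 mice and 34.7-fold lower in Eµ-PRMT5/TCL1 mice, a log2 difference of -4.79 and -5.12. Mouse 3 of the Eµ-PRMT5 group and mouse 3 of the Eµ-PRMT5/TCL1 group decide the size of these values, which were -5.65 without the former and -6.21 without the latter. The 2 replicated groups overlapped, with a log2 fold change of -0.32 (95% interval -1.79 to 1.14) for Eµ-PRMT5/TCL1 over Eµ-PRMT5 and an adjusted p of 0.999994 from edgeR's quasi-likelihood test. This value turned to 0.54 without Eµ-PRMT5 mouse 3. With 1 Eµ-TCL1 mouse, the level of Wnt10a describes that mouse and not the genotype.

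**Figure D1:**
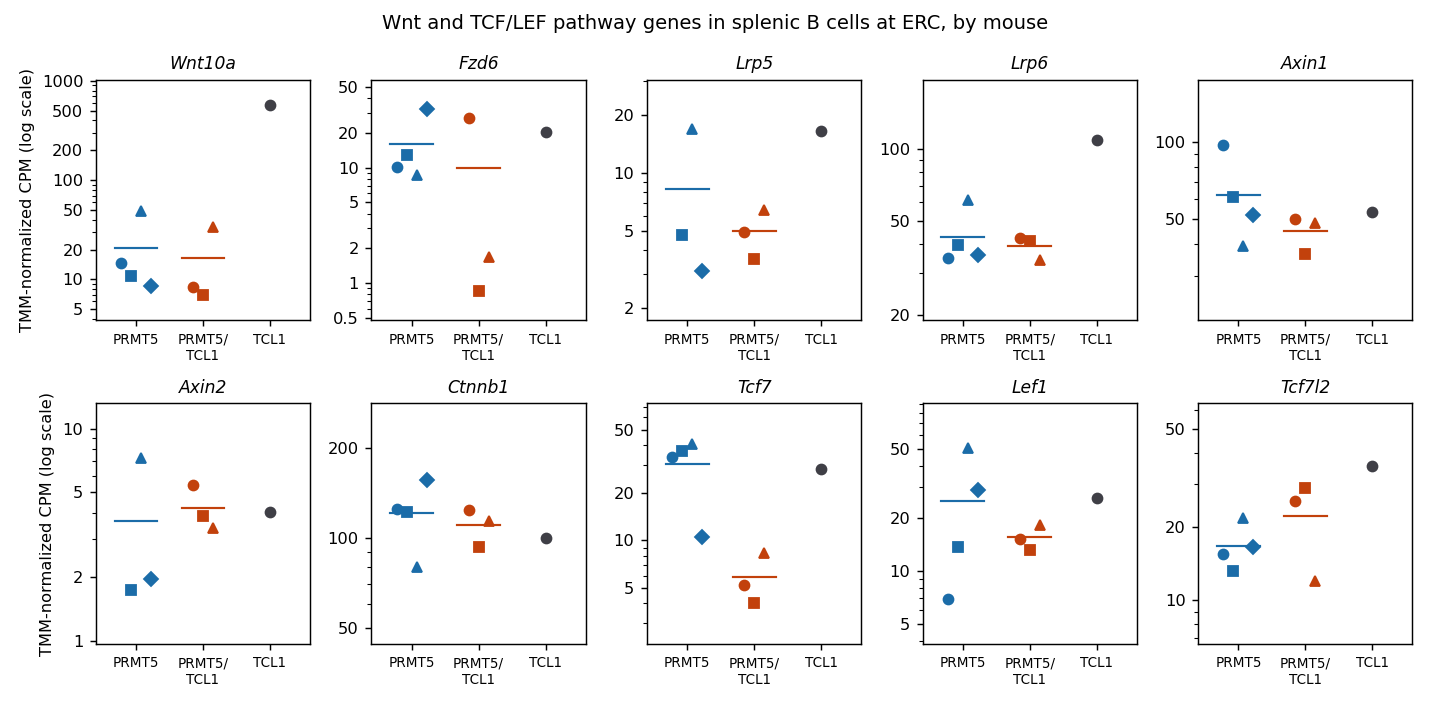
TMM-normalized CPM of the 10 genes on log axes, 1 panel per gene; each point is a mouse (circle, square, triangle and diamond for mice 1 to 4) and each horizontal line the mean of a replicated group. The Eµ-TCL1 mouse reaches 571 CPM for Wnt10a, and the 3 Eµ-PRMT5/TCL1 mice lie below all 4 Eµ-PRMT5 mice for Tcf7, from 4.00 to 8.30 against 10.5 to 40.8 CPM.

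Fzd6 (plus strand, chr15:39006034-39038188) encodes a Frizzled receptor, often described as acting against the canonical pathway. It measured 10.1, 13.0, 8.66 and 32.3 CPM in Eµ-PRMT5 mice, then 27.1, 0.858 and 1.69 CPM in Eµ-PRMT5/TCL1 mice, with 20.3 CPM in the single Eµ-TCL1 mouse. Within the Eµ-PRMT5/TCL1 group, mouse 1 was far above the others, with 165 reads against 6 and 11. The log2 fold change over Eµ-PRMT5 was -0.71 (SE 0.96) and became -3.64 without that mouse. Both mice highest for Fzd6, Eµ-PRMT5/TCL1 mouse 1 and mouse 4 of the Eµ-PRMT5 group, also had the highest neutrophil and macrophage marker sums (8790 and 5206 CPM for neutrophils). Eµ-PRMT5/TCL1 mouse 2, the lowest for Fzd6, had a neutrophil sum of 5033 CPM, near that of Eµ-PRMT5 mouse 4. Of the other Frizzled genes in the matrix, none had a value in all 8 mice.

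Lrp5 (minus strand, chr19:3584828-3686564) and Lrp6 (minus strand, chr6:134446476-134566965) encode the co-receptors that bind Wnt together with Frizzled. Lrp6 measured 34.9, 39.4, 61.3 and 35.9 CPM in Eµ-PRMT5 mice, then 42.5, 41.2 and 34.3 CPM in Eµ-PRMT5/TCL1 mice, with 109 CPM in the single Eµ-TCL1 mouse. The Eµ-TCL1 mouse was again above all 7 others, while the replicated groups overlapped closely. The log2 difference from the Eµ-TCL1 mouse was -1.35 (SE 0.46, 95% interval -2.35 to -0.35) for Eµ-PRMT5 and -1.48 (SE 0.48, 95% interval -2.52 to -0.43) for Eµ-PRMT5/TCL1. These had the smallest unadjusted p of the members tested there, 0.0121 and 0.00953 in edgeR, and did not pass after adjustment over all genes (adjusted p = 0.709 and 0.778).

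Lrp5 had few reads, 25 to 74 per mouse. It measured 4.75, 16.9 and 3.11 CPM in Eµ-PRMT5 mice 2 to 4, 4.92, 3.57 and 6.45 CPM in Eµ-PRMT5/TCL1 mice, with 16.5 CPM in the single Eµ-TCL1 mouse. Its 2 high values lie in the Eµ-TCL1 mouse and in mouse 3 of the Eµ-PRMT5 group, which also have the highest Lrp6 levels and the shallowest libraries; the part of depth in this was not tested. In the fit without Eµ-PRMT5 mouse 1, the log2 fold change was -0.63 (SE 0.65) between the replicated groups.

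Axin1 (plus strand, chr17:26138688-26195811) encodes the scaffold of the destruction complex. It measured 97.0, 60.8, 39.2 and 51.8 CPM in Eµ-PRMT5 mice, then 50.004, 36.5 and 48.3 CPM in Eµ-PRMT5/TCL1 mice, with 53.3 CPM in the single Eµ-TCL1 mouse. The groups overlapped, and the 95% interval of the log2 fold change of Eµ-PRMT5/TCL1 over Eµ-PRMT5 ran from -1.29 to 0.35.

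Axin2 (plus strand, chr11:108920349-108950783), a further scaffold that β-catenin itself induces and that is widely used as a readout of the pathway, was near the lower limit of these libraries, with 11 to 33 reads per mouse. It measured 1.74, 7.29 and 1.96 CPM in Eµ-PRMT5 mice 2 to 4, 5.41, 3.86 and 3.38 CPM in Eµ-PRMT5/TCL1 mice, with 4.06 CPM in the single Eµ-TCL1 mouse. The Eµ-TCL1 mouse, the highest in Wnt10a, was thus within the range of the others in Axin2. Without Eµ-PRMT5 mouse 1, the log2 fold change was 0.29 (SE 0.67) for Eµ-PRMT5/TCL1 over Eµ-PRMT5, and -0.03 (SE 0.97) for Eµ-PRMT5 over the Eµ-TCL1 mouse.

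Ctnnb1 (plus strand, chr9:120929216-120960507), which encodes β-catenin, measured 125, 122, 79.8 and 157 CPM in Eµ-PRMT5 mice, then 124, 93.2 and 114 CPM in Eµ-PRMT5/TCL1 mice, with 100.03 CPM in the single Eµ-TCL1 mouse. The groups overlapped. The 95% interval of its log2 fold change for Eµ-PRMT5/TCL1 over Eµ-PRMT5 ran from -0.84 to 0.58. β-catenin is controlled mainly through protein stability, which RNA counts do not measure. An exon of Ulk4 on the other strand overlaps Ctnnb1, and exons on the other strand also overlap Lef1 (Gm43352), Axin2 (Gm11670) and Fzd6 (Gm26704); no source used here says whether reads were counted by strand, so reads of the 2 strands cannot be told apart.

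**Figure D2:**
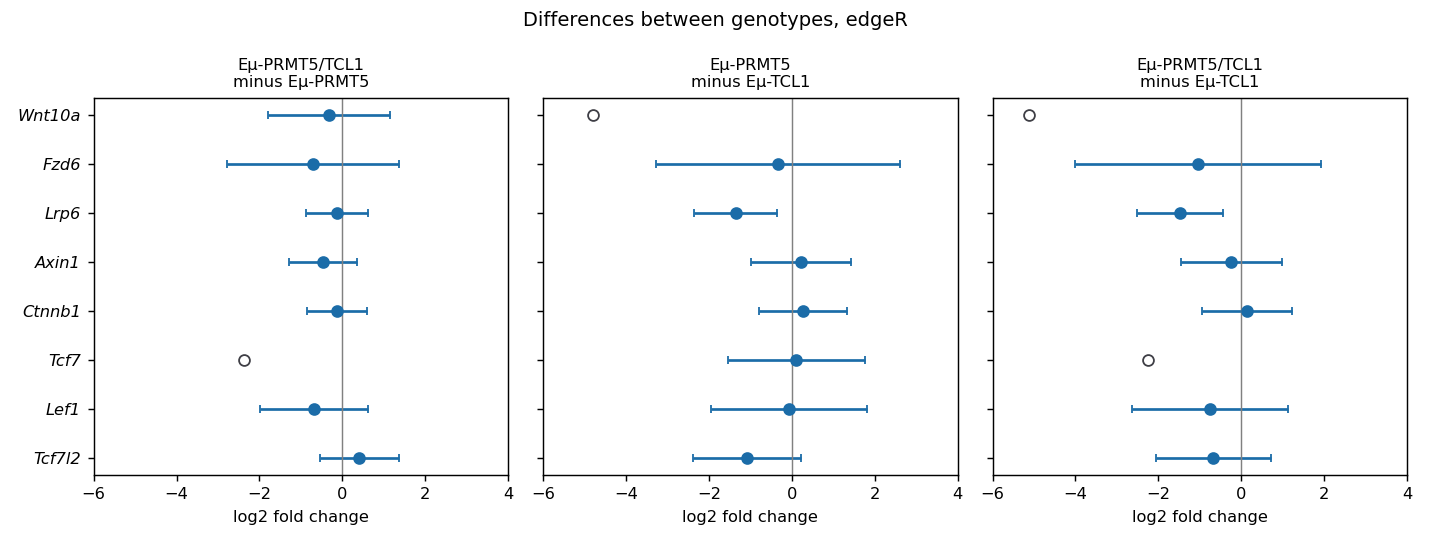
Log2 fold changes of the 8 members with a value in every mouse in the 3 comparisons; filled points are edgeR estimates with 95% intervals, and open points are differences that chose the gene and carry no interval. Wnt10a is at -4.79 and -5.12 against the Eµ-TCL1 mouse, Tcf7 at -2.37 and -2.26 for the Eµ-PRMT5/TCL1 mice, and the Lrp6 intervals lie below 0 in both comparisons with the Eµ-TCL1 mouse.

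Tcf7 encodes TCF-1 and lies on chromosome 11 (minus strand, chr11:52252371-52283014). It measured 33.5, 36.7, 40.8 and 10.5 CPM in Eµ-PRMT5 mice, then 5.25, 4.00 and 8.30 CPM in Eµ-PRMT5/TCL1 mice, with 28.1 CPM in the single Eµ-TCL1 mouse. All 3 Eµ-PRMT5/TCL1 mice lay below the other 5, and Eµ-PRMT5 mouse 4 was nearest to them. Relative to Eµ-PRMT5, the fitted level was 5.17-fold lower in the double transgenic mice, a log2 difference of -2.37 that ranged from -2.71 to -2.16 as each mouse was left out. Against the Eµ-TCL1 mouse the log2 difference was -2.26. Of all genes tested, 1.59% had all Eµ-PRMT5/TCL1 mice below all Eµ-PRMT5 mice, and 0 of the 7 tested members other than Tcf7. Tcf7 was chosen for this position, so nothing is read from its being there. A plasma cell marker, Sdc1, held the same position, at 203, 114, 59.95 and 37.0 CPM in Eµ-PRMT5 mice, then 9.84, 9.44 and 35.5 CPM in Eµ-PRMT5/TCL1 mice, with 41.4 CPM in the single Eµ-TCL1 mouse. It was 1 of 5 plasma cell markers to do so, and their sum overlapped between the groups (681 to 5740 CPM in Eµ-PRMT5, 508 to 2807 CPM in Eµ-PRMT5/TCL1 and 2005 CPM in the Eµ-TCL1 mouse). The part of plasma cells in the Tcf7 values was not tested. The difference between Eµ-PRMT5 and the Eµ-TCL1 mouse, which was not used to choose Tcf7, was 0.11 (95% interval -1.53 to 1.75, adjusted p = 0.977 from edgeR).

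Lef1 (plus strand, chr3:131110471-131224356), which encodes LEF-1, measured 6.90, 13.8, 50.4 and 29.2 CPM in Eµ-PRMT5 mice, then 15.2, 13.2 and 18.3 CPM in Eµ-PRMT5/TCL1 mice, with 26.2 CPM in the single Eµ-TCL1 mouse. The Eµ-PRMT5 mice spanned both sides of the other genotypes. The log2 fold change for Eµ-PRMT5/TCL1 over Eµ-PRMT5 was -0.68 (95% interval -1.99 to 0.62), and it did not pass the test. Lef1 thus did not share the order of Tcf7, since Eµ-PRMT5 mouse 1 had the lowest Lef1 and the third highest Tcf7.

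Tcf7l2 (plus strand, chr19:55741820-55933654) encodes TCF-4, the family member best known from the intestine. It measured 15.4, 13.1, 21.7 and 16.6 CPM in Eµ-PRMT5 mice, then 25.6, 28.9 and 12.0 CPM in Eµ-PRMT5/TCL1 mice, with 35.4 CPM in the single Eµ-TCL1 mouse. Eµ-PRMT5/TCL1 mice 1 and 2 were above all Eµ-PRMT5 mice and mouse 3 below them. The log2 fold change was 0.41 (95% interval -0.54 to 1.36) between these groups, and -1.08 (95% interval -2.39 to 0.22) for Eµ-PRMT5 over the Eµ-TCL1 mouse.

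Divided by exon length (all annotated exons of a gene merged), the 4 TCF/LEF genes, with Tcf7l1 added, can be set beside each other as levels. Tcf7 made up 82.3, 79.8, 62.4 and 41.7% of their summed CPM per kb in Eµ-PRMT5 mice 1 to 4, then 25.6, 21.999 and 43.5% in the Eµ-PRMT5/TCL1 mice, with 55.9% in the single Eµ-TCL1 mouse. It was highest of the 4 in every Eµ-PRMT5 mouse and in the Eµ-TCL1 mouse. In Eµ-PRMT5/TCL1 mice 1 and 2, Tcf7l2 was highest instead, at 37.3 and 47.5% of the sum. The sum itself ranged from 6.93 to 7.82 CPM per kb in Eµ-PRMT5/TCL1 mice and from 9.59 to 24.9 in Eµ-PRMT5 mice. The low Tcf7 values that chose this gene enter these shares, so they are a description.

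**Figure D3:**
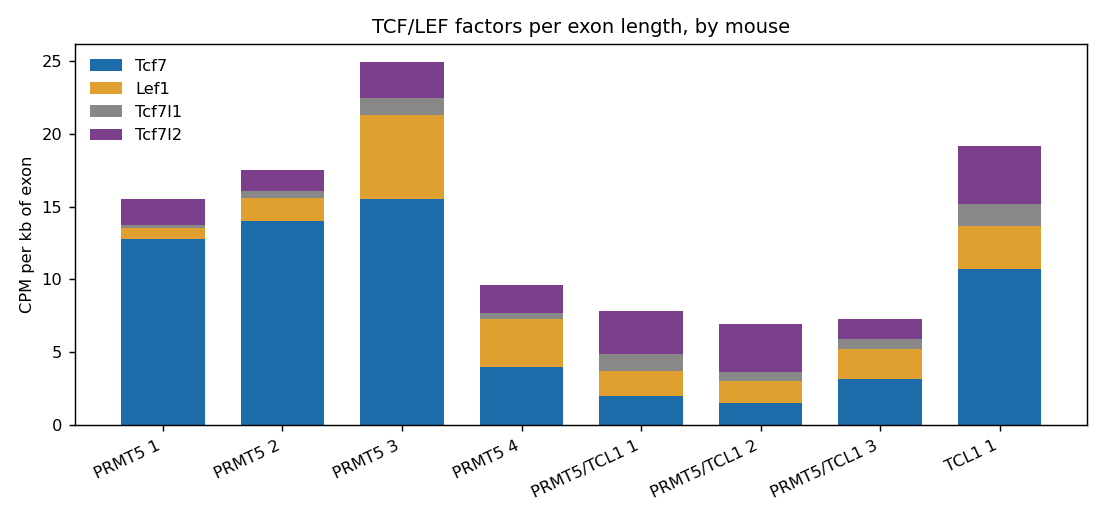
Stacked bars of CPM per kb of exon for the 4 TCF/LEF genes in each mouse. The Tcf7 segment is the tallest in the 4 Eµ-PRMT5 mice, Eµ-PRMT5/TCL1 mouse 3 and the Eµ-TCL1 mouse, and is between 1.53 and 3.16 CPM per kb in the Eµ-PRMT5/TCL1 mice.

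Since Tcf7 and Lef1 are abundant in T cells, T cell markers were measured beside them. Of 18 markers, 11 had a value in every mouse, none of these was at 0, and their sum was 462 to 1300 CPM in Eµ-PRMT5, 757 to 1295 CPM in Eµ-PRMT5/TCL1 and 557 CPM in the Eµ-TCL1 mouse. Cd2 (113 to 524 CPM) and Lck (121 to 667 CPM) were the highest of the 11 in every mouse. They carried most of this sum, which therefore says little about the other markers. All Eµ-PRMT5/TCL1 mice were below all Eµ-PRMT5 mice for 0 of the 11 (1.59% of all genes) and above them for 1 (Cd2, against 1.35%), but 6 of the 11 were lowest in Eµ-PRMT5 mouse 4 and 8 were highest in Eµ-PRMT5 mouse 3. For 4 of the 11 (Cd3d, Cd3e, Cd28 and Il7r), Eµ-PRMT5 mice 1 to 3 were each above all Eµ-PRMT5/TCL1 mice, as they were for Tcf7, against 5.25% of all genes; this count was made after the values were seen. Il7r, the interleukin-7 receptor chain found on T cells and early B cells, measured 30.6, 26.8, 35.8 and 1.61 CPM in Eµ-PRMT5 mice, then 7.38, 4.29 and 2.31 CPM in Eµ-PRMT5/TCL1 mice, with 5.68 CPM in the single Eµ-TCL1 mouse. Cd3e, a chain of the T cell receptor complex, measured 17.0, 14.2, 55.2 and 6.57 CPM in Eµ-PRMT5 mice, then 7.38, 6.43 and 9.99 CPM in Eµ-PRMT5/TCL1 mice, with 21.6 CPM in the single Eµ-TCL1 mouse. Cd3d, of the same complex, measured 13.2, 6.81, 44.7 and 2.65 CPM in Eµ-PRMT5 mice, then 4.10, 2.43 and 2.15 CPM in Eµ-PRMT5/TCL1 mice, with 2.43 CPM in the single Eµ-TCL1 mouse. These 4 markers thus shared with Tcf7 the position of Eµ-PRMT5 mice 1 to 3 above all Eµ-PRMT5/TCL1 mice, and the rest of the 11 did not. Like Tcf7, the 4 were also highest in mouse 3 and lowest in mouse 4 within the Eµ-PRMT5 group. Unlike for Tcf7, Eµ-PRMT5 mouse 4 was not above all Eµ-PRMT5/TCL1 mice for any of the 4. The Eµ-TCL1 mouse was above all Eµ-PRMT5/TCL1 mice for Tcf7, Cd3e and Cd28, and not for Cd3d or Il7r. Among the rest of the 11, Cd3g was highest in Eµ-PRMT5 mouse 4, at 95.1 CPM, and Lck in Eµ-PRMT5/TCL1 mouse 2, at 667 CPM. The part of T cells in the Tcf7 and Lef1 values was not tested.

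**Figure D4:**
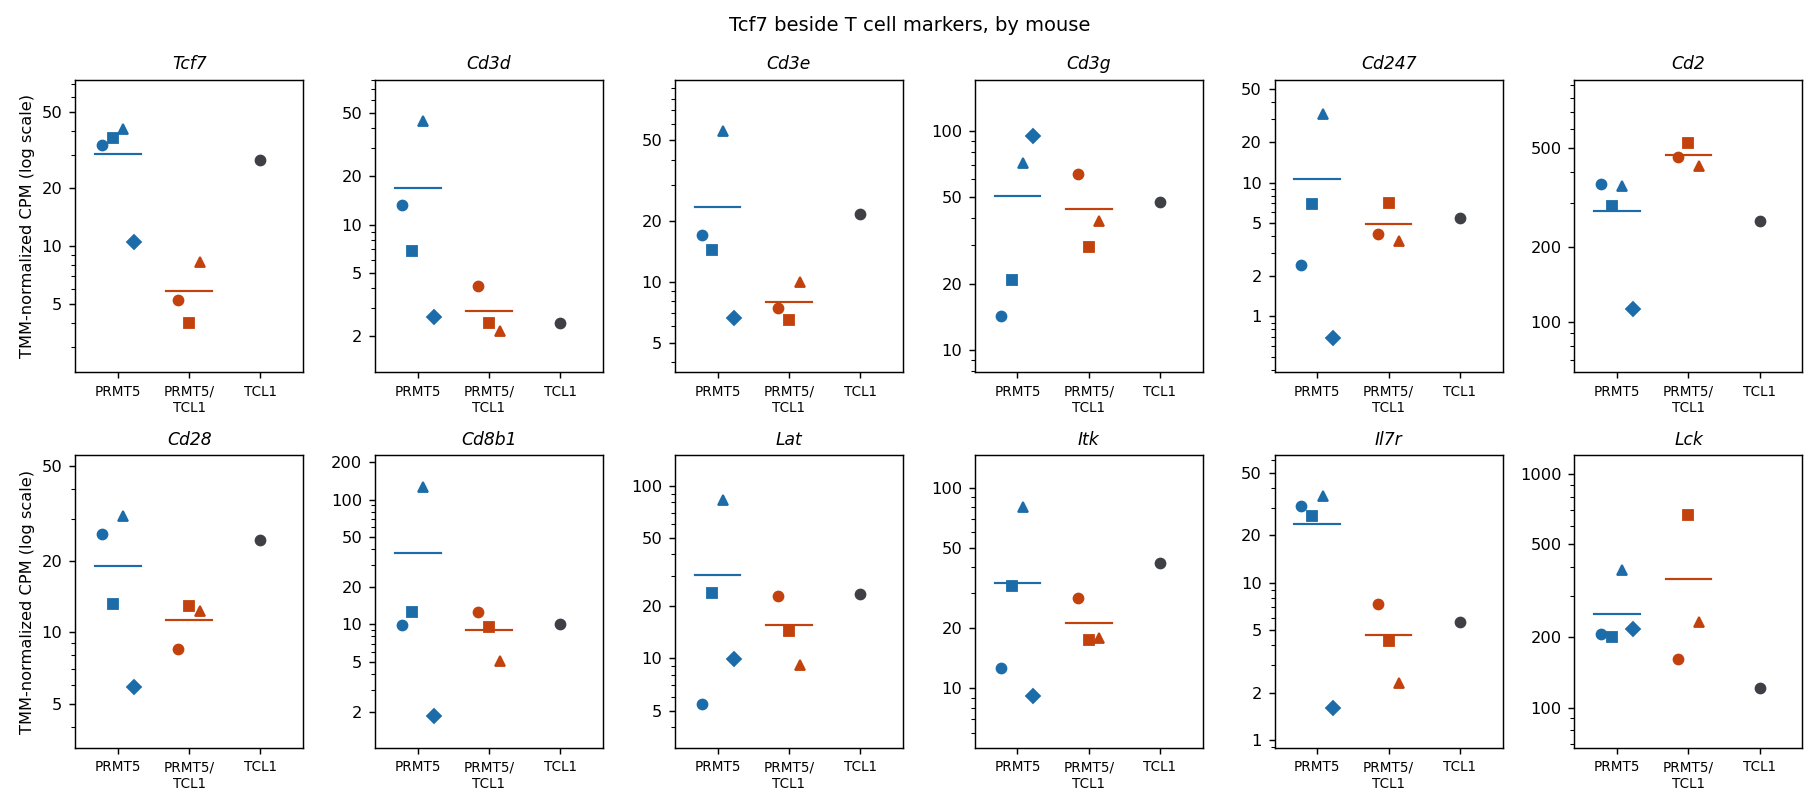
Tcf7 and the 11 T cell markers with a value in every mouse, as TMM-normalized CPM (log axis, its range set per gene), with 1 point per mouse and a line at the mean of each replicated group. Eµ-PRMT5 mice 1 to 3 lie above the 3 Eµ-PRMT5/TCL1 mice for Tcf7 and for Cd3d, Cd3e, Cd28 and Il7r, while for Cd2 the Eµ-PRMT5/TCL1 mice lie above all Eµ-PRMT5 mice.

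No member passed an adjusted p of 0.05 with a fold over 4 in any comparison, among the values that were tested. The same holds for all genes: 0% of 13173 were called in each of the 3 comparisons. Before adjustment, p was under 0.05 with a higher level in the double transgenic mice for 0.957% of genes, and with a lower one for 1.21%, when set against Eµ-PRMT5. For Eµ-PRMT5 against the Eµ-TCL1 mouse these shares were 1.96% higher and 4.82% lower, and for Eµ-PRMT5/TCL1 against it 1.75% higher and 4.33% lower. The latter comparisons share the single Eµ-TCL1 mouse, which is assumed to vary like the replicated groups.

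Wnt10a was chosen for being high in the Eµ-TCL1 mouse and Tcf7 for being low in Eµ-PRMT5/TCL1 mice, so the counts here leave out the one or the other where the choice fixed its position. Among the 7 tested members without Wnt10a, the Eµ-TCL1 mouse was the highest of all mice for Tcf7l2 and Lrp6, 2 of 7, against 21.3% of all genes. It was above all Eµ-PRMT5 mice for the same 2 of 7, against 24.4% of all genes. Without Wnt10a and Tcf7, it was above all Eµ-PRMT5/TCL1 mice for 4 of 6 (Lef1, Tcf7l2, Axin1 and Lrp6), against 39% of all genes. Without Wnt10a, it was below all Eµ-PRMT5 mice for 0 of 7 (17.9% of all genes). Without Wnt10a and Tcf7, it was below all 7 others for 0 of 6 (14.2% of all genes). For 0 of the same 6 was it below all Eµ-PRMT5/TCL1 mice (27.6% of all genes). Wnt10a, Tcf7l2 and Lrp6 stayed highest in this mouse with upper-quartile scaling and with scaling by library size alone.

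A wider set of 123 Wnt pathway genes, members included, was then examined. Of these, 121 are in the matrix and 58 were tested. Leaving aside Wnt10a and Tcf7 in the contrasts that chose them, none was called in any comparison. Without Wnt10a and Tcf7, which were chosen by these contrasts, the median log2 fold change of the other 56 was -0.05 for Eµ-PRMT5/TCL1 over Eµ-PRMT5, beside -0.09 over all genes. It was -0.29 for Eµ-PRMT5 and -0.60 for Eµ-PRMT5/TCL1 against the Eµ-TCL1 mouse, beside 0.04 and -0.07 over all genes. In the last comparison 16 of the 56 were higher and 40 lower in the Eµ-PRMT5/TCL1 mice, beside 6140 higher and 7033 lower over all 13173 genes. The Eµ-TCL1 mouse was the highest of all 8 for 19 of the 56 (33.9%, against 21.3% of all genes) and the lowest for 3 (5.36%, against 14.2%). Scaling by library size alone moves the median of all genes by -0.25 and -0.23 in the comparisons with this mouse. Its library was also the shallowest, and some genes of the set had few reads, such as Wnt2b with 17 to 72 per mouse. The shares over all genes were not matched for read count, and the part of depth was not tested.

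Among 19 Wnt ligands, 4 had a value in every mouse (Wnt10a, Wnt5a, Wnt16 and Wnt2b). Wnt5a, a ligand best known for signaling without β-catenin, measured 2.84, 5.54, 7.52 and 1.38 CPM in Eµ-PRMT5 mice, then 10.001, 7.29 and 5.53 CPM in Eµ-PRMT5/TCL1 mice, with 23.8 CPM in the single Eµ-TCL1 mouse. It was highest in the Eµ-TCL1 mouse, with a log2 difference of -2.47 (SE 0.79) for Eµ-PRMT5, an unadjusted p of 0.00884 and an adjusted p of 0.709 in edgeR. For Wnt16 the log2 difference from that mouse was -0.99 in Eµ-PRMT5 and -1.41 in Eµ-PRMT5/TCL1. For Wnt2b it was -1.54 and -1.97.

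Wls encodes the carrier that takes Wnt proteins to the cell surface. It measured 31.3, 29.8, 14.4 and 25.02 CPM in Eµ-PRMT5 mice, then 59.2, 68.1 and 85.3 CPM in Eµ-PRMT5/TCL1 mice, with 13.0 CPM in the single Eµ-TCL1 mouse. Thus the groups did not overlap, and the Eµ-TCL1 mouse, highest in Wnt10a, was lowest in Wls. The log2 fold change for Eµ-PRMT5/TCL1 was 1.49 over Eµ-PRMT5 (SE 0.37, 95% interval 0.69 to 2.30, unadjusted p = 0.00165) and 2.45 over the Eµ-TCL1 mouse (SE 0.67, unadjusted p = 0.00318). Neither passed after adjustment by edgeR (adjusted p = 0.999994 and 0.778). Porcn, which encodes the enzyme that attaches a lipid to Wnt proteins before secretion, was highest in the Eµ-TCL1 mouse, at 22.2 CPM against 4.04 to 9.35 CPM in the others; it was named after its values were seen.

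Each Eµ-PRMT5/TCL1 mouse was above all Eµ-PRMT5 mice for 2 of the 58 genes, Wls and Tnfrsf19, against 1.35% of all genes, and below all of them for Tnks2 and for Tcf7, which was chosen for it. Without Wnt10a and Tcf7 that is 1 of 56, against 1.59% of all genes. Tnfrsf19, a TNF receptor family gene listed as a β-catenin target, measured 20.3, 1.58, 52.2 and 9.57 CPM in Eµ-PRMT5 mice, then 61.6, 53.2 and 231 CPM in Eµ-PRMT5/TCL1 mice, with 43.8 CPM in the single Eµ-TCL1 mouse. Its groups are separated only narrowly, by 52.2 and 53.2 CPM, and each spans a wide range. The log2 fold change was 2.47 (SE 0.84, unadjusted p = 0.0125, adjusted p = 0.999994 in edgeR), and it ranged from 1.47 without Eµ-PRMT5/TCL1 mouse 3 to 3.47 without Eµ-PRMT5 mouse 3.

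**Figure D5:**
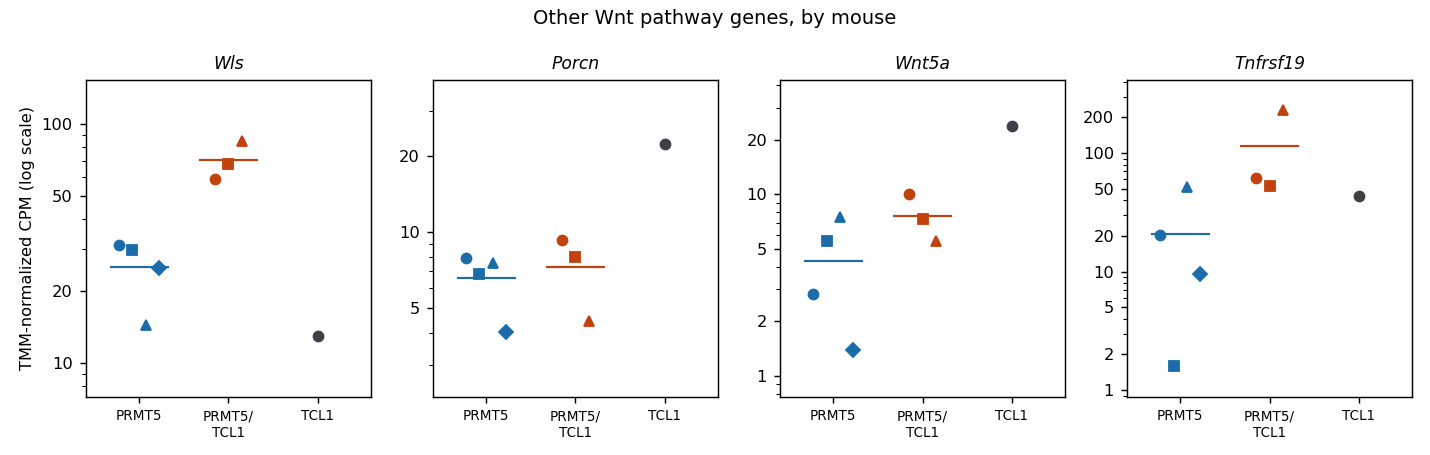
TMM-normalized CPM on log axes of Wls, Porcn, Wnt5a and Tnfrsf19; points are mice, with symbols for mice 1 to 4, and lines are means of the replicated groups. Wls lies between 59.2 and 85.3 CPM in the Eµ-PRMT5/TCL1 mice, above the 14.4 to 31.3 CPM of the Eµ-PRMT5 mice.

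Of the textbook β-catenin targets, 11 of 17 were tested. In Eµ-PRMT5/TCL1 over Eµ-PRMT5, 6 were higher and 5 lower (Tcf7 among them, which was chosen by this contrast) with a median log2 fold change of 0.03. Over all genes, 5350 were higher and 7823 lower in that comparison, with a median of -0.09. Cd44, the adhesion receptor with the most counts in the list of targets, measured 334 and 321 CPM on average in Eµ-PRMT5 and Eµ-PRMT5/TCL1 mice. In the destruction complex, 12 of 14 genes were tested, with medians of -0.26, 0.04 and -0.17 in the 3 comparisons. Csnk1a1, a kinase that primes β-catenin for degradation and the gene with the most counts there, was between 251 and 427 CPM in all mice, and its log2 fold changes were -0.05, 0.06 and 0.00. Hdac1, the most counted of 10 tested TCF/LEF cofactors, ranged from 219 CPM in the Eµ-TCL1 mouse to 459 CPM in Eµ-PRMT5/TCL1 mouse 2. Chd8, a chromatin remodeler that binds β-catenin, ranged from 80.8 to 205 CPM and was highest in the Eµ-TCL1 mouse.

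Among 6 Dishevelled genes and regulators tested, Dvl3, which passes the signal from Frizzled to the Axin complex, measured 254.5 CPM in Eµ-PRMT5 mouse 1, 14.9 to 31.2 CPM in the other Eµ-PRMT5 mice, 17.4 to 25.7 CPM in Eµ-PRMT5/TCL1 mice, with 71.6 CPM in the single Eµ-TCL1 mouse. Its value in Eµ-PRMT5 mouse 1 thus stood far above all others. Rnf43, a ligase that removes Frizzled from the surface, was lowest in the same mouse, at 3.45 CPM against 13.5 to 45.2 CPM elsewhere. Daam1, a formin of the planar polarity branch, ranged from 18.9 to 38.2 CPM over the 7 mice with a value, and Kremen1, a receptor for the Dickkopf inhibitors, from 5.57 to 25.02 CPM over 6 mice.

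The genes tested whose log2 CPM followed Wnt10a most closely over the 8 mice were Mest (Pearson r = 0.978), Amy2a4 (0.973), Slc17a4 (0.971), Brdt (0.968) and Mfsd6l (0.960). Each was highest in the Eµ-TCL1 mouse, with Mest at 22.2 CPM against 4.15 to 7.98 CPM elsewhere. For Tcf7 they were Gm16845 (0.976), Kcnj8 (0.955), Gm14410 (0.946), Papd5 (0.931) and Mfap2 (0.928), and Papd5 was lowest in the Eµ-PRMT5/TCL1 mice, at 14.8, 14.01 and 15.5 CPM against 18.2 to 35.1 CPM. For Lef1 they were Zfp516 (0.956), Gcnt2 (0.948), Gpr155 (0.931) and Adarb1 (0.930). The values that chose Wnt10a and Tcf7 enter their correlations. Nothing is therefore read from the positions of their partners in the Eµ-TCL1 or Eµ-PRMT5/TCL1 mice. Some partners had low levels, such as Amy2a4 at 0.346 to 5.41 CPM and Mfap2 at 0.715 to 2.16 CPM. The genes named are among the top 5 of 13173 genes in each case, the points share library and depth, and the correlations are a description.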

How the data were processed

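Splenic pan-B cells of 8 mice were measured by bulk RNA-seq and grouped by the genotype in their labels. Raw counts for each gene symbol and mouse were deposited by the authors, with no normalization. Processing notes of the submitters name GRCm38, featureCounts of Subread and DESeq2 1.20.0; the library kit and depth in the labels differ from those in the methods, and the meaning of 36919 cells holding NA is not stated.

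The 10 genes and the wider lists were chosen with earlier results of these data known. Symbols with a value in all 8 mice (14072) were filtered by expression, leaving 13173. The smallest group holds 1 mouse, so enough reads in any 1 mouse could let a gene pass. The 13173 were tested with edgeR 4.0.16 in R 4.3.3: TMM scaling, 1 quasi-likelihood model over 3 groups, and Benjamini-Hochberg adjustment. A call required an adjusted p under 0.05 and a fold over 4. Intervals are 95% and come from that model, whose code was tested on simulated data. The labels do not say that mice were independent in litter or day, so p-values measure the spread between these mice, and reads carry no stated molecular identifiers.

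Members were named in full. From the wider lists, those past the threshold, the 3 of smallest unadjusted p per comparison and the highest mean CPM per list were named. Some genes that this rule or the marker lists cover are not reported here. Patterns used log2 CPM with a prior count of 2. Positions and exons are from GENCODE vM21, and promoter windows from RefSeq GRCm38.p6; Python 3.11.15 and matplotlib 3.10.9 were used. Alternatives were DESeq2 1.42.0, other scalings, filters and prior counts, NA as 0, 2 groups only, each mouse left out and a replicate block.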

Additional observations from a re-analysis of the deposited data

Results flagged for a closer look

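Among 17 genes of these lists checked in the 4 Eµ-PRMT5 mice, 3 had 1 mouse far from the rest of its group by Dixon's gap test. The test takes the gap to the nearest mouse over the group's range. Its rate of about 1 in 20 by chance holds for separate groups picked without regard to their values. The 17 genes share the same 4 mice, so the 3 are a description and no excess is read from them. For Wnt10a, Eµ-PRMT5 mouse 3 had 48.8 CPM and the rest of its group 8.53 to 14.6 CPM. Lrp6 measured 61.3 CPM in the same mouse against 34.9 to 39.4 CPM, a gap share of 0.8291 that passes the critical value only in the fourth decimal. Dvl3 reached 254.5 CPM in mouse 1 of the group, which had values for the fewest symbols, against 14.9 to 31.2 CPM. Dvl3 was among the 17 for the highest mean CPM of its list, and that mean includes the flagged value.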

How the results depend on the processing

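With DESeq2, 4 genes were called for Eµ-PRMT5/TCL1 over Eµ-PRMT5 (3 higher, 1 lower), 18 for Eµ-PRMT5 over the Eµ-TCL1 mouse (4 and 14) and 16 for Eµ-PRMT5/TCL1 over it (9 and 7), against 0 in edgeR; counts in edgeR stayed from 0 to 0 as each mouse was left out, and the cause was not tested. Genes with p under 0.05 before adjustment, for Eµ-PRMT5 over Eµ-TCL1, went from 258 higher and 635 lower to 519 and 1620 without Eµ-PRMT5 mouse 3, 694 and 551 without mouse 1, and 128 and 794 by library size alone. For Eµ-PRMT5/TCL1 over Eµ-TCL1 they went from 231 and 571 to 1511 and 1490 with 2 groups only. Of the alternative values, 503 stayed as in the report in direction and call, and these log2 differences turned. For Eµ-PRMT5 over Eµ-TCL1, Lef1 (-0.07) became 0.023 with DESeq2, 0.17 with NA as 0 and 0.030 with 2 groups only. In the same comparison Tcf7 (0.11) became -0.016 with upper-quartile scaling and -0.091 by library size alone, which also gave -0.0094 for Ctnnb1 and -0.055 for Axin1. For Eµ-PRMT5/TCL1 over Eµ-TCL1, Ctnnb1 became -0.080 by library size alone and Axin1 0.045 with NA as 0. Leaving out each mouse gave, for Eµ-PRMT5/TCL1 over Eµ-PRMT5, -1.42 to 0.54 for Wnt10a, -0.28 to 0.021 for Ctnnb1 and -0.20 to 0.097 for Lrp6, and for Eµ-PRMT5 over Eµ-TCL1, -0.65 to 0.41 for Lef1, -0.063 to 0.40 for Tcf7 and -0.93 to 0.077 for Fzd6.

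The replicate numbers name different animals and same-numbered mice did not all deviate together (correlations -0.021, 0.154 and 0.16). With the replicate block over mice 1 to 3, 0 genes were called and 500 were higher and 331 lower with p under 0.05 before adjustment, against 378 and 377 in the same mice without the pairing; Ctnnb1 was 0.036 and 0.019. Depth limits Axin2 (11 to 33 reads) and Lrp5 (25 to 74).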

Other observations

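Wnt6, the neighbor of Wnt10a on chromosome 1 (chr1:74771892-74785322, 6194 bases below it), was named after its values were seen. It had 39 reads (10.5 CPM) in the Eµ-TCL1 mouse, 4 in Eµ-PRMT5 mouse 4 and 0 in Eµ-PRMT5/TCL1 mouse 3, and no value in the other 5 mice, so it was not tested. Of 8 protein-coding genes within 100000 bases of Wnt10a, 6 are in the matrix and 2 have a value in every mouse, of which 1, Ttll4, was highest in the Eµ-TCL1 mouse, at 41.6 CPM against 19.3 to 39.2 CPM elsewhere.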
